A study of Musca domestica with 24 samples.

Results

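Temperature during development can act differently on flies of different genotype, and such a difference is measured here gene by gene in heads of the house fly (Musca domestica). The measure is the strain-by-temperature interaction: the log2 change from 18 to 29 °C in strain CSrab minus the same change in strain IsoCS. A positive value means that expression moved up more, or down less, with warmth in CSrab than in IsoCS. All 12 head libraries of the 24 libraries in the series enter it. The 4 groups are CSrab and IsoCS flies that developed at 18 °C or at 29 °C, and each group has 3 biological replicates. The submitters describe both strains as sharing a background and differing in the proto-Y chromosome alone. The labels give neither the sex nor the age of the flies, nor the number of heads per library. The other 12 libraries are testes of the same groups and serve here for comparison. Of 16540 genes in the head table, 12347 had enough counts to be tested.

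House fly males are made by a male-determining gene that sits on young Y chromosomes, the proto-Y chromosomes, and different males can carry it on different chromosomes. From published descriptions of these strains, CSrab carries the proto-Y on chromosome III, which corresponds to Muller element A, and IsoCS carries the one on the Y chromosome, which shares its genes with element F. Muller elements are the chromosome arms that fly genomes have in common, lettered A to F. Natural populations show a cline in which the Y chromosome form is more frequent at cooler sites and the chromosome III form at warmer ones. Expression that responds to temperature differently in carriers of the 2 forms is therefore the quantity of interest. In a head sample, changes in the proportions of nervous tissue, eye, fat body and muscle cannot be told apart from changes in RNA per cell.

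Head libraries held 15.7 to 35.7 M counts (M for mega), and the 29 °C libraries were deeper on average in both strains. Replicates of CSrab at 29 °C spread most, with a median SD of 0.31 in log2 CPM (counts per M counts, on scaled library sizes), against 0.233 to 0.27 in the other groups. On a scale shared with testis, pdf, a clock neuropeptide, had 4.71 to 20.7 CPM in head against at most 0.177 CPM in testis, and MdRdl, a GABA receptor subunit, had 1.36 to 3.31 CPM against at most 0.295 CPM. Other nervous or sensory genes did not set head apart: para-like, named after a neuronal sodium channel, overlapped at 72.2 to 326.6 CPM in head and 49.1 to 187.1 CPM in testis, and so did the acetylcholine receptor subunit nAChRbeta3, at 64.2 to 105.6 and 46.4 to 178.7 CPM. The receptor IR25a was lower in head, at 7.70 to 32.7 CPM against 143.9 to 220.1 CPM in testis. The fat body gene yp3, a yolk protein, had 101.5 to 1078 CPM in head and 10.9 to 97.8 CPM in testis. Opsin, muscle and testis markers could not be checked, because the table names no such gene by symbol. Libraries stood apart within groups. The antibacterial genes attacin and diptericin were at 168.1 and 119.6 CPM in IsoCS 18 °C replicate 2 and at 959.6 and 576.3 CPM in IsoCS 29 °C replicate 1, against at most 5.97 and 9.99 CPM in the other 10 libraries. The serpin SPN13 was at 186.2 and 98.4 CPM in replicate 3 of CSrab at 18 and 29 °C and at 15.2 CPM in IsoCS 29 °C replicate 2, against at least 1210.1 CPM elsewhere. The main counts are therefore also given without these libraries.

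The interaction was small for most genes. Its median over the 12347 genes was 0.00, its quartiles lay at -0.24 and 0.27 on the log2 scale, and the median standard error was 0.36. For 61.2% of the genes the 95% confidence interval reached less than 1 log2 unit to each side. For the others an estimate below that size has an interval that includes 0. These intervals are per gene and not adjusted over the genes tested. The calls below are adjusted, so an interaction of 1 log2 unit could go uncalled in the first set too. LOC101889989, at -1.09 ± 0.225 (SE), was not called. In 1223 genes the estimate itself was at least 1 in size. Only 3 genes, 0.0243% of those tested, were called, meaning that the quasi-likelihood F test of edgeR gave a p under 0.05 after Benjamini-Hochberg adjustment over all tested genes. All 3 had positive interactions. That fit has no term for the replicate number. With the number as a block within CSrab, an alternative chosen after seeing the data, 1 gene was called (LOC109614160). In the reported fit 614 genes (4.97% of those tested) had an unadjusted p under 0.05, 333 positive (2.70%) and 281 negative (2.28%). A share this close to the cutoff is what a test gives when no gene differs. The 614 are therefore not read as a set of responding genes. DESeq2's Wald test on the same counts called 50 genes, 0.382% of the 13077 with an adjusted p, of which 34 were positive (0.26%) and 16 negative (0.122%). Without the attacin-high libraries 2 genes were called by edgeR, without replicate 3 of both CSrab groups 4, and without IsoCS 29 °C replicate 2 the count was 3. Without CSrab 29 °C replicate 3 it was 7, of which 3 were positive and 4 negative. The number at an unadjusted p under 0.05 was 1194 without that library and 356 without the attacin-high libraries.

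**Figure D1:**
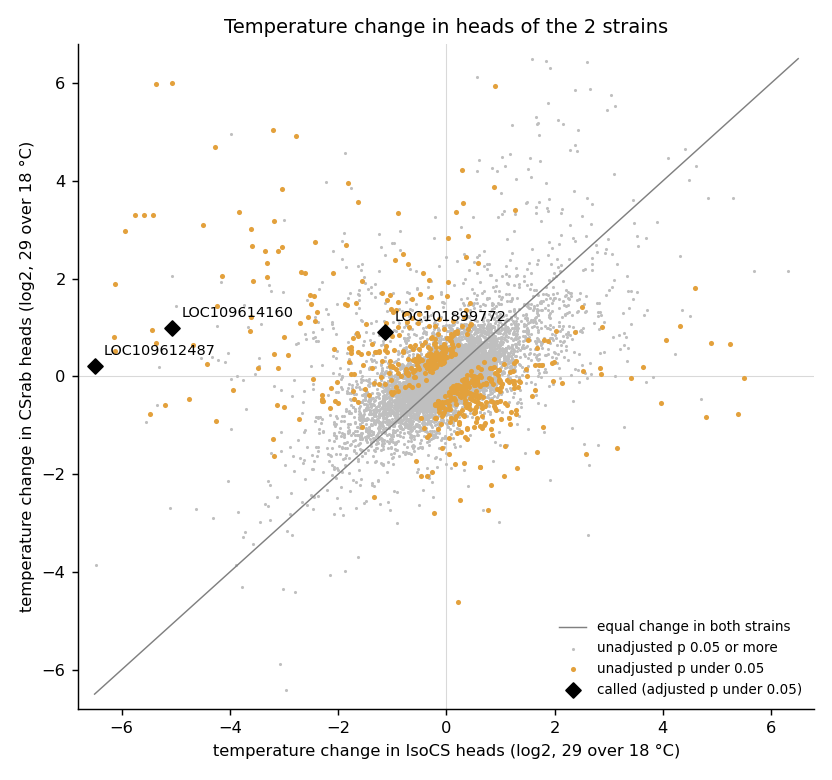
Log2 temperature change (29 over 18 °C) in IsoCS heads (horizontal axis) and CSrab heads (vertical axis) for the tested genes, with the 3 called genes as diamonds. The distance from the diagonal is the interaction; 33 genes beyond 6.5 on either axis are not drawn, and the diamond of LOC109612487 stands at the edge because its IsoCS change lies outside.

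In the same fit, the temperature contrast was called for 35 genes (0.283%) in CSrab and 86 (0.697%) in IsoCS, and the strain contrast for 404 (3.27%) at 18 °C and 544 (4.41%) at 29 °C. These contrasts use the libraries of the interaction, so they are given only as values beside it.

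The variation between the 12 libraries can be split exactly into strain, temperature, their interaction and replicates. The interaction held a median of 3.10% of a gene's sum of squares of log2 CPM, against 12.1% for strain, 13.7% for temperature and 54.5% for replicates. Replicates hold 8 degrees of freedom, far more than each designed part, so their share is not comparable with the others. A designed part also takes up some of the spread between replicates. It was the largest of the 3 designed parts in 1539 genes, where strain was the largest in 5139 and temperature in 5669. Counted by library ranges, changes shared by the strains outnumbered opposite ones. In 927 genes (7.51%) the 18 and 29 °C libraries did not overlap in either strain and moved in the same direction, and in 57 genes (0.462%) they moved in opposite directions, 26 of them (0.211%) up in CSrab and 31 (0.251%) down in CSrab. In 1231 genes (9.97%) the strains did not overlap at either temperature and kept their order, and in 40 (0.324%) they exchanged it. With 3 libraries per group, ranges can also stand apart through the spread between replicates alone. How many genes would do so was not computed, so the 57 and the 40 are not read as sets of responding genes.

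LOC109614160, a protein-coding gene with no assigned element, had the smallest p. In IsoCS at 18 °C its 3 libraries had 9.84, 8.91 and 7.66 CPM (182, 157 and 118 counts). In IsoCS at 29 °C they had 0.312, 0.185 and 0.284 CPM (8, 6 and 7 counts). CSrab had 0.449, 0.574 and 0.331 CPM at 18 °C and 0.762, 1.27 and 0.718 CPM at 29 °C. The gene was thus high in the cool IsoCS group alone, and no library of any other group came near it. With warmth in IsoCS it fell by 5.07 on the log2 scale (adjusted p = 0.00052), a 33.8-fold difference of means, while the CSrab change of 1.00 did not pass the test (adjusted p = 0.16). CSrab was lower than IsoCS at 18 °C (adjusted p = 0.000358) and higher at 29 °C (adjusted p = 0.0143). The interaction was 6.06 ± 0.461 (SE; adjusted p = 0.00141), and it passed the threshold in 26 of 26 alternative analyses.

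LOC101899772, also protein coding and without an element, moved in opposite directions in the 2 strains. CSrab had 17.4, 17.5 and 18.5 CPM at 18 °C and 36.4, 33.2 and 30.2 CPM at 29 °C. IsoCS had 45.2, 37.3 and 54.2 CPM at 18 °C and 21.7, 21.3 and 19.6 CPM at 29 °C. No 2 groups that differ in strain or in temperature alone overlapped, and the strain with the higher level at 18 °C had the lower level at 29 °C. It rose 1.87-fold with warmth in CSrab (adjusted p = 0.0361) and fell to 0.458 of its 18 °C level in IsoCS (adjusted p = 0.00845). The interaction was 2.03 ± 0.194 (SE; adjusted p = 0.00597). Same-numbered CSrab libraries deviated together across temperatures, and with the replicate number as a block within CSrab the adjusted p was 0.0554.

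LOC109612487, on element B, was at low counts, with no read in a single group. It had 1.29, 1.18 and 0.945 CPM in CSrab at 18 °C (23, 33 and 20 counts) and 1.02, 1.39 and 1.55 CPM at 29 °C (24, 34 and 54 counts). IsoCS had 0.595, 0.624 and 0.519 CPM at 18 °C (11, 11 and 8 counts) and 0 counts in all 3 libraries at 29 °C. The CSrab temperature groups overlapped, and each IsoCS group lay below CSrab at the same temperature. Set against a floor of 3 counts per library, IsoCS was at least 5.25-fold lower at 29 °C than at 18 °C, which gives a log2 interaction of at least 2.60. Its adjusted p was 0.0129. It passed in 14 of 26 alternatives, with an adjusted p of 0.0989 under the block within CSrab and of 0.0604 to 0.0809 in each of 6 analyses that left out 1 library (any of the 3 CSrab 18 °C libraries, CSrab 29 °C replicate 2, and IsoCS 18 °C replicates 1 and 2).

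**Figure D2:**
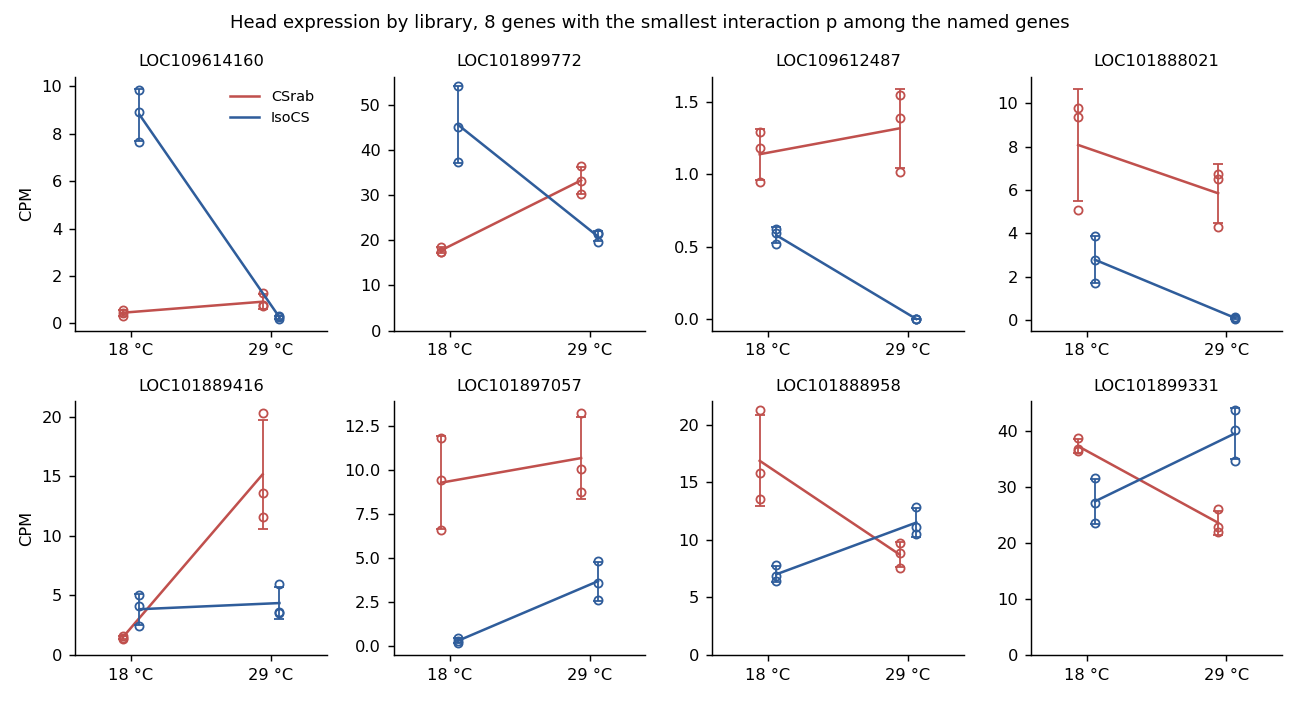
CPM in each head library at 18 and 29 °C for 8 named genes, with CSrab in red and IsoCS in blue; open circles are libraries, lines join group means and bars are SDs (n = 3). In LOC109614160 the IsoCS libraries at 18 °C, at 7.66 to 9.84 CPM, stand above all others, and in LOC101899772, LOC101888958 and LOC101899331 the lines of the strains cross.

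Beyond the called genes, the 10 positive and the 10 negative interactions with the smallest p among genes with a mean of at least 5 CPM in some group are described. They were ranked by that p, so their p-values rank them and are not evidence for the group. With the called genes these are 21 genes, 11 positive and 10 negative. In 16 of them the fitted temperature changes of the strains had opposite signs, and in 14 the IsoCS change was the larger one. The genes were chosen by the difference between these changes, which opposite signs enlarge. Shares over all tested genes were not counted, so both numbers stand without a comparison. By element, 1 lies on A, 4 on B, 3 on C, 5 on D and 1 on E, and 7 have none. The reference gene table lists 15 as protein coding, 2 as pseudogenes and 1 as a long non-coding RNA, and it gives no product name for any of them.

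**Figure D3:**
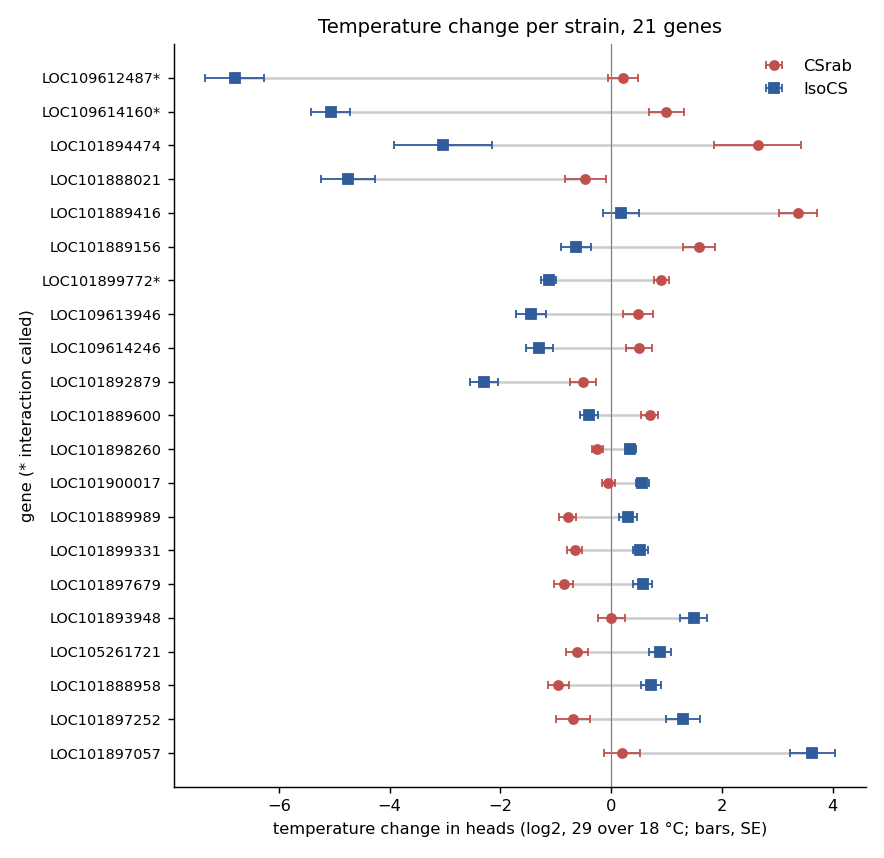
Fitted log2 temperature change (29 over 18 °C) in CSrab (red circles) and IsoCS (blue squares) for the 21 genes, ordered by interaction, with SE bars and an asterisk on the 3 called genes. The grey line between the symbols is the interaction; the IsoCS value of LOC109612487 is a fit against a group at 0 counts and is no measure of size.

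In several of these genes the movement was in IsoCS. LOC101888021 (element D, protein coding) had 2.76, 1.70 and 3.89 CPM in IsoCS at 18 °C and 0.0781, 0.0615 and 0.162 CPM at 29 °C (2, 2 and 4 counts). CSrab had 9.38, 5.09 and 9.79 CPM at 18 °C and 6.52, 4.30 and 6.74 CPM at 29 °C, so its temperature groups overlapped and both lay above IsoCS. Its mean fell 27.7-fold with warmth in IsoCS (adjusted p = 0.00635), and the interaction of 4.29 ± 0.61 had an adjusted p of 0.0808. The adjusted p was 0.0989 with the block within CSrab, where the libraries deviated together by number, and 0.00609 with a block over all 4 groups, where the strains did not. LOC101887853, the gene next to it in the reference gene table and on the same scaffold, was picked out after its values were seen. It had 1.35, 0.738 and 1.82 CPM in IsoCS at 18 °C (25, 13 and 28 counts) and 1, 1 and 0 counts at 29 °C, against 1.35 to 3.55 CPM over the 6 CSrab libraries. The interaction had an adjusted p of 0.116, and its size is not given because the IsoCS counts at 29 °C are at the floor. Both genes were close to 0 in the same group.

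LOC101897057 (no element, protein coding) showed the opposite pattern. It had 0.162, 0.454 and 0.26 CPM in IsoCS at 18 °C and 2.62, 3.60 and 4.82 CPM at 29 °C, a 12.6-fold rise (adjusted p = 0.00689). CSrab stayed between 6.57 and 13.2 CPM at both temperatures, above every IsoCS library. The interaction was -3.43 ± 0.521 (adjusted p = 0.0948). The long non-coding RNA LOC101893948 had 3.25, 3.18 and 2.40 CPM in IsoCS at 18 °C and 8.24, 5.69 and 10.9 CPM at 29 °C, against 7.19 to 9.74 CPM in CSrab (interaction -1.49 ± 0.349, adjusted p = 0.503). In that gene the IsoCS libraries at 18 °C lay below all others.

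LOC101892879 (element C, protein coding) fell in IsoCS from 8.38, 8.51 and 5.13 CPM to 1.84, 1.23 and 1.42 CPM (adjusted p = 0.00653). CSrab overlapped between temperatures, at 14.3, 18.2 and 20.9 CPM against 11.1, 11.8 and 14.5 CPM, and the interaction was 1.79 ± 0.34 (adjusted p = 0.236). The pseudogenes LOC109614246 and LOC109613946 had much the same profile as each other. LOC109614246 had 15.7, 15.9 and 17.5 CPM in IsoCS at 18 °C and 6.87, 6.22 and 6.93 CPM at 29 °C. LOC109613946 had 9.30, 9.42 and 9.80 CPM and then 3.94, 3.11 and 3.40 CPM. In CSrab their temperature groups overlapped. Their interactions were 1.80 ± 0.332 and 1.93 ± 0.381 (adjusted p = 0.236 and 0.279). How reads shared by similar copies were counted is not given in the sources used here, so these profiles may share reads.

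In LOC101889416 (element A, protein coding) the movement was in CSrab. It had 1.46, 1.33 and 1.61 CPM in CSrab at 18 °C and 11.6, 13.6 and 20.3 CPM at 29 °C, a 10.3-fold rise (adjusted p = 0.011). IsoCS overlapped between temperatures, at 4.11, 4.99 and 2.40 CPM against 3.63, 3.51 and 5.91 CPM. CSrab thus lay below IsoCS at 18 °C and above it at 29 °C. The interaction was 3.19 ± 0.461 (adjusted p = 0.0808), and it is the only gene of element A among the 21.

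In 8 of the 21 genes the strains did not overlap at either temperature and their order reversed: LOC109614160, LOC101899772, LOC101889416, LOC109614246, LOC101897252, and the 3 given here. Over all tested genes 40 of 12347 (0.324%) had this pattern. The 21 were chosen by the interaction, which such a reversal enlarges, so the 8 are a description and not a result about them. LOC101888958 (element D) had 15.8, 13.6 and 21.3 CPM in CSrab at 18 °C and 7.58, 8.89 and 9.70 CPM at 29 °C, against 6.44, 7.77 and 6.81 CPM and then 10.5, 12.9 and 11.1 CPM in IsoCS. LOC101899331 (element B) had 36.8, 36.4 and 38.8 CPM and then 22.0, 22.9 and 26.1 CPM in CSrab, against 27.2, 23.5 and 31.6 CPM and then 40.3, 43.8 and 34.7 CPM in IsoCS. LOC101897679 (element B) had 14.99, 11.4 and 11.4 CPM and then 6.39, 6.18 and 8.27 CPM in CSrab, against 8.33, 6.47 and 6.55 CPM and then 10.9, 10.8 and 9.97 CPM in IsoCS. In these 3 genes CSrab was the higher strain in the cool and the lower one in the warm, the reverse of LOC101899772. Their interactions were -1.67 ± 0.257, -1.19 ± 0.187 and -1.43 ± 0.243, with adjusted p-values of 0.0948, 0.102 and 0.159.

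In other genes the gap between the strains differed between temperatures, but not their order. LOC101889156 (element D) had 5.503, 4.84 and 2.88 CPM in CSrab at 18 °C against 21.7, 21.8 and 20.7 CPM in IsoCS, and at 29 °C the strains overlapped at 10.2 to 17.9 CPM (interaction 2.22 ± 0.397, adjusted p = 0.209). LOC105261721 (element C) overlapped between strains at 18 °C, at 18.1 to 25.1 CPM, and at 29 °C had 15.8, 11.3 and 12.3 CPM in CSrab against 28.3, 43.8 and 43.8 CPM in IsoCS (interaction -1.49 ± 0.283, adjusted p = 0.236). At 18 °C LOC101889600 (element D) had 9.49, 9.40 and 8.04 CPM in CSrab against 23.7, 24.97 and 23.2 CPM in IsoCS, and it had 17.1, 10.9 and 15.6 CPM against 19.5, 17.3 and 17.7 CPM at 29 °C (interaction 1.09 ± 0.224, adjusted p = 0.34). In the first and last of these the strains were further apart in the cool, and in LOC105261721 in the warm.

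LOC101889989 (element D), the most abundant of the 21 after LOC101900017, had 81.2, 64.5 and 72.4 CPM in CSrab at 18 °C and 42.4, 41.6 and 42.6 CPM at 29 °C, against 21.3 to 35.4 CPM over the 6 IsoCS libraries (interaction -1.09 ± 0.225, adjusted p = 0.34). LOC101900017 (element B) had 32.4, 36.1 and 35.6 CPM in IsoCS at 18 °C, below the 45.5 to 56.2 CPM of the other 9 libraries (interaction -0.61 ± 0.157, adjusted p = 0.677). LOC101897252 (no element), LOC101898260 (element E) and LOC101894474 (element C) complete the 21, with interactions of -1.98 ± 0.431, -0.60 ± 0.143 and 5.68 ± 1.18 and adjusted p-values of 0.417, 0.547 and 0.342. LOC101894474 had 0.378 to 1.74 CPM in CSrab at 18 °C and 4.70, 12.6 and 2.96 CPM at 29 °C. In IsoCS it had 0.379, 2.78 and 1.17 CPM at 18 °C and 0.156, 0.123 and 0.243 CPM at 29 °C (4, 4 and 6 counts). It thus rose in CSrab and fell in IsoCS, with temperature groups apart in both strains. Replicate 2 of CSrab at 29 °C is the highest library for this gene.

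Over all tested genes, 17 (0.138%) had 4 groups whose ranges were apart both between temperatures within each strain and between strains at each temperature, with both orders reversed. Of these, 8 had a positive and 9 a negative interaction, and their median absolute interaction was 1.62. Besides the 5 already described (LOC109614160, LOC101899772, LOC101888958, LOC101899331 and LOC101897679), they include LOC101887838, the only gene of element F with an unadjusted p under 0.05, at -1.88 ± 0.423 (adjusted p = 0.436). They were found by the values that the interaction measures, so no test is attached to them.

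The genes called by DESeq2 were at lower levels than the tested genes as a whole. All 50 had an unadjusted p under 0.05 in edgeR, with a largest p of 0.014. Their median mean level was 5.83 CPM against 18.4 CPM over all tested genes. In 10 of them a group had at most 3 counts in every library. How many of all tested genes have such a group was not counted, so that number stands without a comparison. In 10 of the 50 a single library held over 50% of the counts of its highest group, where 12.2% of all tested genes have such a library. The authors' deposited table also has 50 genes with an adjusted p under 0.05, and they are the same 50. The 5 most abundant of these were LOC101890017, LOC109614058, LOC101900759, LOC101899952 and LOC101900017.

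LOC101890017 (element C) had 254.7, 305.6 and 293.3 CPM in CSrab at 18 °C and 355.1, 348.0 and 336.3 CPM at 29 °C. IsoCS had 218.0, 255.4 and 239.6 CPM and then 186.2, 199.0 and 201.0 CPM, so the strains overlapped in the cool and were apart in the warm (interaction 0.57 ± 0.158, edgeR adjusted p = 0.801, DESeq2 adjusted p = 0.023). LOC101899952 (element D) had 46.7, 47.7 and 47.1 CPM in CSrab at 18 °C, below the 57.3 to 78.0 CPM of the other 9 libraries (interaction 0.77 ± 0.17, adjusted p = 0.427, 0.0106 in DESeq2). LOC101900759 (no element) had 75.7, 73.1 and 65.0 CPM in CSrab at 18 °C and 115.9, 110.3 and 89.4 CPM at 29 °C, and 25.6 to 37.8 CPM in IsoCS (interaction 0.87 ± 0.208, adjusted p = 0.547, 0.0463 in DESeq2).

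LOC109614058 (no element) behaved in another way: its libraries were either high or near 0. It had 97.9, 163.9 and 0.189 CPM in CSrab at 18 °C, 267.6, 639.2 and 795.8 CPM in CSrab at 29 °C, 0.108, 896.1 and 0.714 CPM in IsoCS at 18 °C, and 0.273, 1.05 and 0.081 CPM in IsoCS at 29 °C. The single highest library belonged to IsoCS at 18 °C, whose other replicates were near 0. The fitted interaction was 11.96 ± 3.94 with an adjusted p of 0.924 in edgeR and 0.0234 in DESeq2, and it was 2.38 without IsoCS 18 °C replicate 2. Of the 5 tested genes on its scaffold, LOC101888850, LOC101889208 and LOC101889779 were high and low in the same libraries, at 6.78 to 386.1 CPM in the 6 high libraries and at most 0.844 CPM in the other 6. The fifth, LOC101889501, lay between 299.7 and 406.5 CPM in all 12 (interaction 0.14 ± 0.20). IsoCS 18 °C replicate 2 is also an attacin-high library, and the part of that in the result was not tested.

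**Figure D4:**
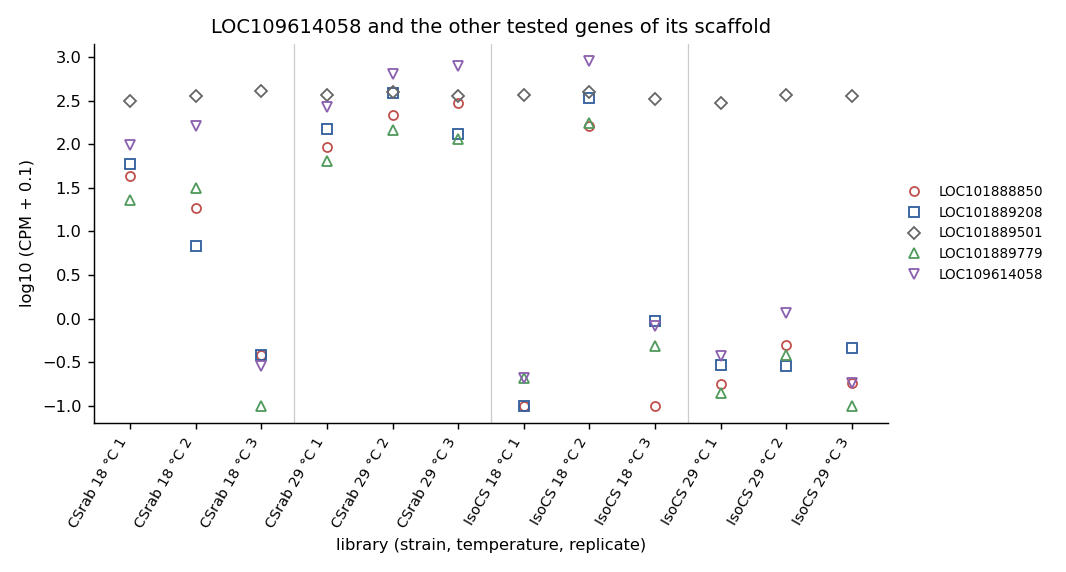
Log10 of CPM plus 0.1 in each of the 12 head libraries for LOC109614058 and the 4 other tested genes of its scaffold. Marks stand for genes and vertical lines separate the groups; 4 genes are high in 6 libraries and near 0 in the other 6, and LOC101889501 is level throughout.

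By chromosome element, the share of genes at an unadjusted p under 0.05 ranged over elements A to E from 3.98% on element D (73 of 1834) to 4.90% on element E (120 of 2449). Element A, which corresponds to the chromosome that carries the CSrab proto-Y, had 4.31% (76 of 1765, 38 in each direction) and a median interaction of 0.01. Element F had 1 of 34. These shares are close to the 4.97% over all tested genes. Genes with no element stood higher at 6.79% (172 of 2535), and they included LOC109614160 and LOC101899772. Their median level was 4.80 CPM against 18.4 CPM over all genes, and their median standard error was 0.53 against 0.36. The share also moved with level over all genes, from 7.84% under 1 CPM to 3.63% over 64 CPM. Long non-coding RNAs had 18 of 244 (7.38%) and pseudogenes 7 of 27, 6 of them positive. What level contributes to these shares was not tested.

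Of 2 heat shock proteins and 3 CCT chaperonin subunits found by symbol, edgeR called 0. Beside the 0.0243% called over all tested genes, a count of 0 among so few genes says little about them. The heat shock proteins hsp20, a small holdase chaperone, and HSP70, which refolds proteins, were the 2 found by symbol. In hsp20, CSrab had 28.3, 26.3 and 35.8 CPM at 18 °C and 67.2, 65.9 and 68.5 CPM at 29 °C, and IsoCS had 32.5, 41.8 and 34.9 CPM and then 90.1, 81.1 and 44.3 CPM. All 6 warm libraries thus lay above all 6 cool ones, with an interaction of 0.18 ± 0.332. HSP70 lay between 3139.6 and 3757 CPM in the 6 cool libraries and between 4286 and 6009 CPM in the warm ones, with an interaction of 0.09 ± 0.276. The 95% intervals of -0.56 to 0.92 and -0.52 to 0.71 bound how far the strains could differ. The CCT chaperonin subunits CCT-delta, CCT-eta and CCT-zeta, parts of the ring that folds actin and tubulin, had interactions of 0.09 ± 0.17, 0.08 ± 0.248 and 0.49 ± 0.282.

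Of 7 tested genes of detoxification (cytochrome P450s and glutathione transferases), 0 were called and 0 had an unadjusted p under 0.05 in edgeR or an adjusted p under 0.05 in DESeq2. Beside the shares over all tested genes, 0.0243% and 4.97% in edgeR, a count of 0 among so few genes says little about them. CYP6A24, a P450, was closest, at 176.3, 232.0 and 219.0 CPM in CSrab at 18 °C and 412.6, 494.7 and 300.9 CPM at 29 °C, against 187.1 to 447.9 CPM in IsoCS (interaction 1.10 ± 0.499, unadjusted p = 0.0527). The temperature groups were apart in CSrab and overlapped in IsoCS. CYP12A2 and GST-6A were at -0.41 ± 0.317 and -0.30 ± 0.413. The microsomal electron carrier CYB1, a cytochrome b5 that donates electrons to P450s, is on no list and had the smallest p of any gene with a symbol. It had 38.3, 40.0 and 29.5 CPM in CSrab at 18 °C and 98.4, 71.9 and 73.2 CPM at 29 °C, against 24.9 to 45.7 CPM in IsoCS (interaction 1.31 ± 0.331, unadjusted p = 0.00264, adjusted p = 0.677). The CSrab libraries at 29 °C lay above all others.

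Immune effectors could not be estimated with any precision. For attacin, diptericin and lysozyme, which attack bacteria, the interactions were -2.56 ± 3.10, -1.38 ± 3.05 and 6.43 ± 4.10. Attacin and diptericin rested on the 2 libraries named above, and both values were positive without them, at 1.71 and 0.72. Lysozyme was at 14.5 and 37.8 CPM in CSrab 29 °C replicates 1 and 2 and at no more than 2.13 CPM in the other 10 libraries. Of the 4 tested immune genes 0 were called and 0 had an unadjusted p under 0.05 in edgeR, where 4.97% of all tested genes had one, so these counts say little about so few genes. DESeq2 called 0 and gave no adjusted p for attacin and diptericin.

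The other lists held few genes by symbol. Sxl, the homologue of the fruit fly sex determination switch, was at 0.13 ± 0.488, the chemosensory receptors IR25a and Gr2 at -0.32 ± 0.424 and 0.13 ± 1.23, yp3 at 0.30 ± 1.01 and the neuropeptide pdf at 0.19 ± 0.568. Over both strains pdf had 4.997 to 10.8 CPM at 18 °C and 8.14 to 20.7 CPM at 29 °C, and these ranges overlapped. Lists for phototransduction, the circadian clock, cuticle, muscle, proteases, odorant-binding proteins and the respiratory chain found 0 genes, since nearly all genes are named by identifiers alone. The signs of the small values among these lists turned under some alternatives.

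**Figure D5:**
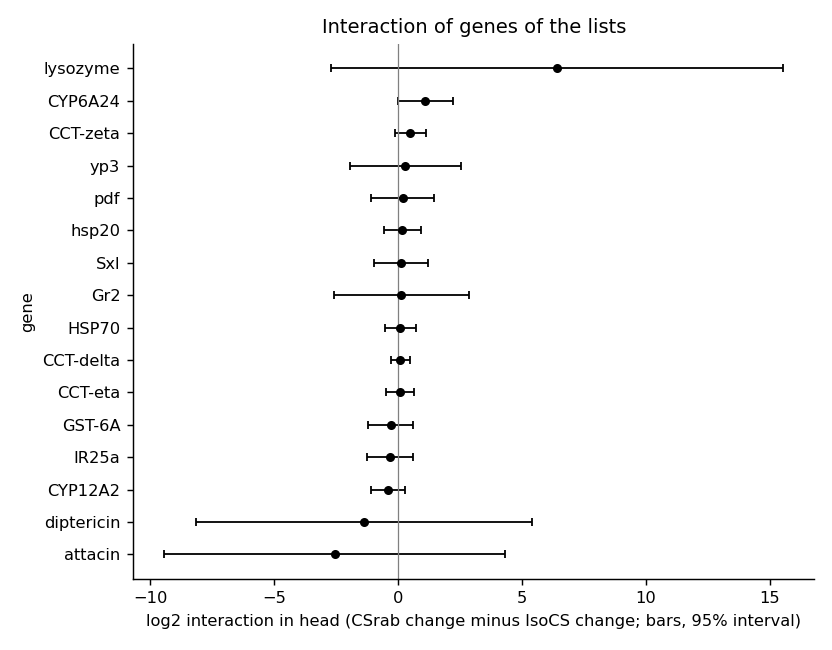
Log2 interaction in head (horizontal axis) of the named genes of the lists, with 95% confidence intervals. All 16 intervals include 0; those of HSP70, hsp20 and the CCT subunits are narrow, and those of attacin, diptericin and lysozyme span over 10 log2 units.

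Whether the interaction differed between head and testis was tested in a model of all 24 libraries. The difference was called for 9 of 14334 genes (0.0628%), 4 positive (0.0279%) and 5 negative, with 721 (5.03%) at an unadjusted p under 0.05. Of the 21 genes named above, 0 were called by edgeR and 3 by DESeq2 (LOC101889156, LOC101894474 and LOC101899772), so nothing named above is shown to be particular to head by the main test. Over all genes DESeq2 called 50 for this difference. The 21 were chosen by their head interaction, which is part of the difference, so that choice favours calls among them. LOC109612487 had a testis interaction of 4.30 in the same direction (adjusted p = 0.011), with mean levels of 1.68 and 1.41 CPM in CSrab testes at 18 and 29 °C and 0.936 and 0.0306 CPM in IsoCS testes. The last level is near 0, so 4.30 is no measure of size. LOC109614160 too was near 0 in a testis group, with a mean of 0.0568 CPM in CSrab at 18 °C. The size of its testis value below is limited in the same way. LOC105261721 had a testis interaction of -1.79 (adjusted p = 0.0306). For LOC109614160 and LOC101899772 the testis interactions were 3.40 and 0.69 (adjusted p = 0.373 and 0.312), and the differences between tissues were 2.57 ± 1.78 and 1.24 ± 0.324 (adjusted p = 1.00 and 0.376).

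In 7 of the 9 genes called for this difference the testis interaction was the larger. The other 2 are LOC105261901 (element E) and LOC109612088 (no element). LOC105261901 had 0.393, 0.933 and 0.851 CPM in CSrab heads at 18 °C and 3.13, 2.91 and 5.45 CPM at 29 °C. The 6 IsoCS head libraries had 0.0649 to 0.511 CPM (1 to 9 counts). Its interaction was 3.33 in head (adjusted p = 0.63) and -1.14 in testis (adjusted p = 0.427), so neither passed alone. The difference was 4.37 ± 0.79 (adjusted p = 0.0442) and passed in 7 of 28 alternatives. LOC109612088 had 0.281, 0.43 and 0.567 CPM in CSrab heads at 18 °C and 0.127, 0.164 and 0.172 CPM at 29 °C. IsoCS heads had 0.216, 0.227 and 0.13 CPM at 18 °C and 0.351, 0.554 and 0.324 CPM at 29 °C. These head values rest on 2 to 18 counts per library, while testes had 52 to 265 counts. Its interaction was -2.51 in head (adjusted p = 0.436) and 1.09 in testis (adjusted p = 0.312), so neither passed alone. The difference was -3.70 ± 0.589 (adjusted p = 0.0193) and passed in 23 of 28 alternatives.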

How the data were processed

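RNA from heads and testes was sequenced as stranded polyA libraries, per the labels. The authors deposited raw read counts per gene, 1 table per tissue, and in each table an adjusted p-value of the interaction. The submitters' processing notes name HISAT2, SAMtools, HTSeq and DESeq2; genome build and settings are not given in the sources used here. The members and lists were chosen with earlier results of these data known.

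The 12 head libraries were fitted with 1 coefficient per group in edgeR 4.0.16 (R 4.3.3): filterByExpr (minimum count 10, total 15), TMM scaling, quasi-likelihood F test, Benjamini-Hochberg adjustment over 12347 genes, called at adjusted p under 0.05. The interaction and the 4 strain and temperature contrasts come from that fit, and share its libraries. The standard error is the absolute log2 value over the square root of F. CPM use TMM-scaled sizes. Head minus testis came from a model of 24 libraries with 8 groups. The code was tested on simulated counts. No list was tested as a set. Alternatives used DESeq2 1.42.0 and limma 3.58.1 voom, other scalings and filters, thinning and left-out libraries.

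Named genes were the called genes, the 10 smallest p in each direction at 5 CPM or more in some group, up to 3 per list, and the 5 most abundant DESeq2 calls; others are said to be chosen after seeing values. Lists were matched by symbol: 53 genes have one besides 44 tRNA rows, and 13607 of 16540 rows matched the reference table (assembly Musca_domestica.polishedcontigs.V.1.1), used for biotype and gene order only.

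Each group has replicates numbered 1 to 3, with no label on what a number shares. Deviations from group means correlated at 0.552, 0.261 and 0.456 between same-numbered CSrab libraries at 18 and 29 °C. In no other pair of groups did all 3 exceed 0.1. The reported fit has no term for such pairs, so its p-values ignore them. A block within CSrab was run only as an alternative, and it left 1 call (LOC109614160). Totals were 15.7 to 35.7 M counts. The p-values set each contrast against the spread between the replicates within groups.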

Additional observations from a re-analysis of the deposited data

Results flagged for a closer look

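In 3 genes the head temperature change differed between CSrab and IsoCS by the test of that difference: LOC109614160 (log2 interaction 6.06), LOC101899772 (2.03) and LOC109612487 (fitted value 7.01 against a group at 0 counts, so its size is given above as a lower bound of 2.60). That test ignores the pairing of CSrab libraries by number. With a replicate block within CSrab only LOC109614160 passed. LOC101899772 and LOC109612487 then had adjusted p-values of 0.0554 and 0.0989 in the edgeR test. LOC109614160 and LOC101899772 have no chromosome element. In 2 further genes the interaction differed between head and testis, and its estimate was the larger in head: LOC105261901 (head minus testis 4.37) and LOC109612088 (-3.70). In neither gene did the head interaction alone pass the edgeR test (adjusted p = 0.63 and 0.436), nor did the testis one. Both are at low level in head, with means of at most 3.83 and 0.426 CPM in any group.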

How the results depend on the processing

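Of the 3 head calls, LOC109614160 passed in 26 of 26 alternatives, LOC101899772 in 24 and LOC109612487 in 14. The number of calls was 50 by DESeq2 and 1 (LOC109614160) with a replicate block within CSrab, an alternative chosen after seeing the data. A replicate block over the 4 groups gave 3 calls (LOC101888021, LOC101899772, LOC109614160) and one within strain, with 4 residual degrees of freedom in place of 8, gave 2 (LOC101888021, LOC109614160; LOC101899772 had adjusted p = 0.184). Leaving out each library gave 2 to 7 calls and 442 to 1194 genes at an unadjusted p under 0.05, the highest of both without CSrab 29 °C replicate 3. Without both attacin-high libraries, also chosen after seeing the data, 356 genes were at that p. For head minus testis, DESeq2 called 50, a replicate block within strain and tissue 4, and leaving out a library 3 to 11.

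The planned legacy option of edgeR is the default of the installed version and so equals the reported analysis; the newer method, added later, called the same 3 genes.

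Values of called genes did not reverse. Uncalled values turned sign as follows. With voom, attacin was 0.10, diptericin 0.25 and Gr2 -0.31. With a replicate block, Gr2 was -0.26 and yp3 -0.034; within strain, attacin was 1.81, diptericin 1.197 and Gr2 -0.20; within CSrab, Gr2 was -0.10. Without the attacin-high libraries, attacin was 1.71 and diptericin 0.72. Without replicate 3 of both CSrab groups, added later, CCT-delta was -0.061, CCT-eta -0.10, Gr2 -0.29 and Sxl -0.34. Over the analyses that left out 1 library, values ran from -6.59 to 5.71 (attacin), -6.55 to 5.86 (diptericin), -1.38 to 0.56 (Gr2), -0.42 to 0.86 (yp3), -0.10 to 0.56 (pdf), -0.11 to 0.23 (CCT-eta), -0.12 to 0.47 (Sxl), -0.036 to 0.17 (CCT-delta), -0.049 to 0.19 (HSP70) and -0.078 to 0.37 (hsp20). Those of head minus testis ran from -0.00028 to 0.70 (LOC105261721), -0.88 to 0.13 (LOC101897679), -1.44 to 0.16 (LOC101889989) and -0.81 to 0.016 (LOC101897252). The causes were not tested. Depth limits LOC109612487: thinned to equal depth, its adjusted p was 0.162.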

Other observations

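Several of the named genes share a scaffold with other genes of small interaction p. This was noticed in the values, and no test is attached. On other scaffolds the named gene was the only one at an unadjusted p under 0.05 in edgeR. Examples are LOC101898260 (1 of 15 tested genes), LOC101899331 (1 of 10), LOC101892879 (1 of 6) and LOC101889416 (1 of 4). On the scaffold of LOC101899772, 3 of 12 tested genes were under an unadjusted 0.05 in edgeR, where 4.97% of all tested genes were. All were positive: LOC101899772, LOC101900759 and LOC101901441 (0.67 ± 0.17, SE). LOC101899772 and LOC101900759 were named for their own edgeR or DESeq2 call, so they count by that choice. LOC101901441 had 6.15 to 6.68 CPM in CSrab at 18 °C and 7.66 to 8.72 CPM at 29 °C, against 7.36 to 7.94 CPM and then 5.60 to 6.29 CPM in IsoCS, so the order of the strains reversed as in LOC101899772. On element D, LOC101888958 and LOC101889600 lie on a scaffold of 4 tested genes with LOC101889433 (1.28 ± 0.383) and LOC101889141 (0.22 ± 0.159), and the first has the opposite sign to the others. LOC101899952 shares a scaffold of 3 tested genes with LOC101900126 (0.75 ± 0.245). LOC101899952 and LOC101889156 are next to each other in the reference gene table, although the deposited table puts them on different scaffolds. Over all scaffolds, 5.57% of the scaffold mates of genes with an unadjusted p under 0.05 were also under 0.05 (360 of 6464), against 4.36% of the mates of other genes. A gene counts as a mate once for each gene it shares a scaffold with.

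LOC101896939 (no element) had the smallest adjusted p of the genes that edgeR did not call, 0.0533. It was called with upper-quartile scaling, by voom and by DESeq2 (adjusted p = 0.00021). CSrab had 14, 45 and 23 counts at 18 °C and 0 counts in all 3 libraries at 29 °C, while IsoCS had 20, 24 and 21 counts and then 28, 19 and 24. Against a floor of 3 counts per library, CSrab was at least 10.4-fold lower at 29 °C than at 18 °C, and the log2 interaction was -2.85 or lower. Its highest group mean was 1.27 CPM, under the level set for naming, and it was picked out after its values were seen.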
